A study of Homo sapiens with 12 samples.

Results

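The NF-kB gene group described here holds the Rel family subunits NFKB1, NFKB2, REL, RELA and RELB, the IκB inhibitors NFKBIA, NFKBIB and NFKBIE, and the feedback or target genes TNFAIP3 and SOD2. The members were taken by gene symbol from both deposited expression tables. Of the 10 members named, 9 had a row in both tables, of 20652 genes in either table, and TNFAIP3 was not analysed here. All 9 passed the minimum mean value of 10 in both tables. The samples are libraries of total RNA, prepared so as to keep the strand, from IMR5. This is an established human line of neuroblastoma with amplified MYCN. A first pair of groups was grown with the XPO1 inhibitor selinexor at 100 nM for 24 h or with its solvent DMSO, whose time the labels do not give. The other pair was nucleofected with control siRNA or with a single siRNA against XPO1, and harvested after 72 h. There were 4 groups with 3 libraries in each. Nothing in the labels says that the 3 are separate cultures. The p-values therefore reflect the spread between these libraries alone, and that spread may be technical.

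NF-kB factors are dimers of Rel family proteins. IκB proteins hold them in the cytoplasm until receptor signals activate the IκB kinase complex, which marks IκB for degradation and lets the dimers enter the nucleus. In the canonical branch the main dimer joins RELA to the mature product of NFKB1, and in the non-canonical branch the kinase encoded by MAP3K14 drives processing of the NFKB2 precursor, whose product pairs with RELB. NFKBIA is itself a target of NF-kB, and its product IκBα carries a nuclear export signal and leaves the nucleus by way of XPO1, the export receptor that selinexor blocks and that the siRNA depletes.

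Several genes of the group are textbook targets of NF-kB, so their promoters are shown first. The kappaB consensus of 10 letters was searched on both strands in the 250 bases before each RefSeq start (GRCh38.p14). It was matched in 5 of the 7 members that had a promoter entry and in 6 of their 15 windows. Over the whole promoter table the match was found in 9.96% of 35116 windows and for 11.8% of 27305 genes. The matched members were NFKB1, NFKB2, REL, NFKBIA and NFKBIB, while the windows of RELA and SOD2 held no match. A match is a description of letters and was not tested as a binding site, and no match says only that these letters are not in the window. The matches are printed below on the strand of the gene, with the matching bases in capitals. Where 2 matches overlap the capitals cover both.
NFKBIA, chr14:35404796-35404855, minus strand: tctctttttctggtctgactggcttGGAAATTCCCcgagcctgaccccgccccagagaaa
NFKB1, chr4:102501300-102501329, plus strand: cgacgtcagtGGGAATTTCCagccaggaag
REL, chr2:60881518-60881547, plus strand: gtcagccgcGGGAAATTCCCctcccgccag
NFKBIB, chr19:38899932-38899961, plus strand: ggcgtggtgGGGAATTTCCCgcagggcgga
NFKB2, first match of its second window, chr10:102394462-102394491, plus strand: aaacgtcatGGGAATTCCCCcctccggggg
NFKB2, other match of that window, chr10:102394490-102394519, plus strand: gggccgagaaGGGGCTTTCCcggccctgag
NFKB2, first match of its last window, chr10:102395519-102395548, plus strand: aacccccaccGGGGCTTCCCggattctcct
NFKB2, other match of that window, chr10:102395674-102395703, plus strand: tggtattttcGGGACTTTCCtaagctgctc
The NFKBIA match began 81 bases before the RefSeq start used, and that of NFKB1 49 bases. For REL it was 47 bases and for NFKBIB 28 bases. The printed stretches of NFKB1, REL and NFKBIB overlapped an annotated exon of the same gene, while that of NFKBIA overlapped none. For NFKB2 only the first match of its last window lay outside the annotated exons of the gene. Matches that overlap an exon therefore lie before the start used, but not before every annotated transcript of their gene. NFKB2 was the member with the most matches, and its 4 stretches came from 2 of its 3 windows.

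The deposited values are gene counts that the authors divided by each library's size factor, called normalized counts here. Estimated depth was 26.8 to 33.8 M reads with selinexor, 39.5 to 40.9 M with DMSO, 40.6 to 54.0 M with control siRNA and 33.5 to 55.8 M with XPO1 siRNA. XPO1 itself stood at 18568, 18950 and 18908 normalized counts with control siRNA and at 4260, 4377 and 4397 with XPO1 siRNA, a 4.33-fold fall (log2 fold change -2.11, limma adjusted p = 2.91e-14). With selinexor its log2 fold change was 0.09 (adjusted p = 0.623), and 0.25 (adjusted p = 0.00112) without selinexor replicate 1. That library stood apart, with log2 correlations of 0.974 and 0.977 to its replicates, against 0.991 between those. In each group 7 of 8 adrenergic neuroblastoma markers had a mean of at least 10. In both comparisons a large part of all genes tested was called changed, so counts of members are read against that background.

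With selinexor, 3 of the 9 members changed (limma, adjusted p under 0.05), against 49.2% of the 18128 genes tested. RELB rose and NFKB1 and SOD2 fell. After XPO1 siRNA, 5 of the 9 changed, against 54.5% of 17616 genes. RELB and NFKBIA rose, and NFKB1, NFKB2 and SOD2 fell. The median log2 fold change of the 9 members was -0.19 with selinexor and -0.15 after XPO1 siRNA, beside -0.0076 and 0.0024 over all genes tested. Both counts of members were near or below what those shares of all genes would give. The median size of change was 0.30 with selinexor (0.44 over all genes) and 0.28 after knockdown (0.26 over all genes). Libraries of treated and control cells did not overlap for 6 members with selinexor, 2 higher and 4 lower (61.7% of all genes tested, 28.8% higher and 32.9% lower), and for 7 after XPO1 siRNA, 2 higher and 5 lower (60.4% of all genes, 29.2% higher and 31.2% lower). NFKB1, RELB and SOD2 passed the test each time, in matching directions, while 33.9% of genes tested in both were called in both, whatever their signs. In bulk RNA such as this, fewer cells of a kind and less RNA per cell cannot be told apart.

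**Figure D1:**
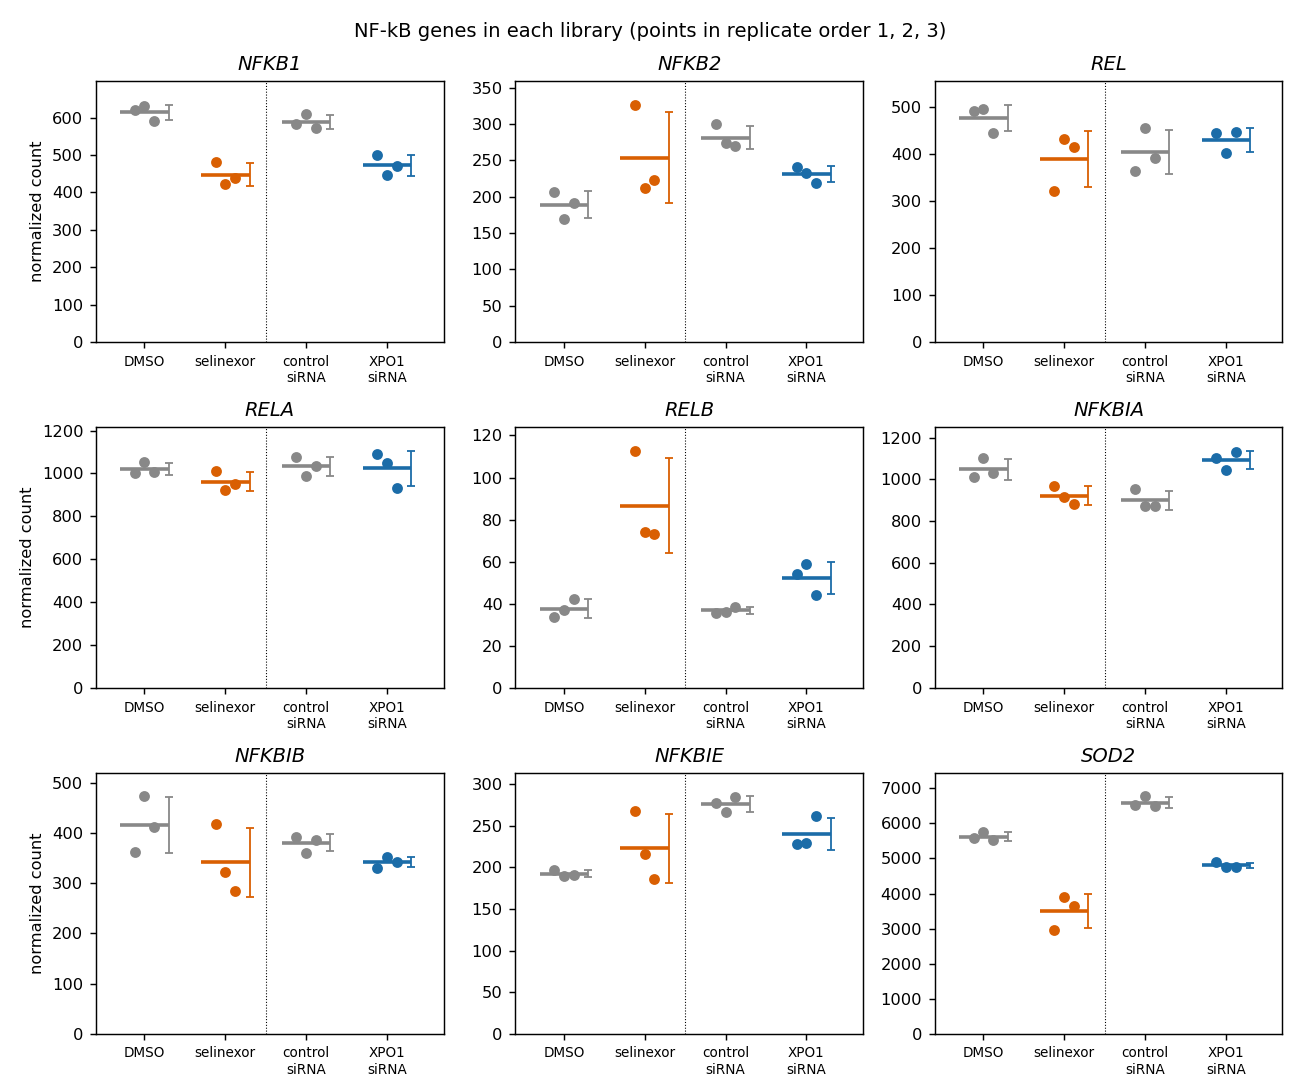
Normalized counts (vertical axis, linear, from 0) of the 9 NF-kB genes in each of the 12 libraries, with points in replicate order, horizontal lines for group means and bars for the SD. The dotted line parts the separately normalized tables. RELB libraries lie above their controls and SOD2 and NFKB1 libraries below them in both comparisons, and the first selinexor library lies apart for RELB and NFKB2.

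RELB, the subunit of the non-canonical branch, was the member with the largest rise. It lies at chr19:45504688-45541453 on the plus strand (hg19, as are all gene positions below, from the files). RELB stood at 33.5, 37.1 and 42.4 normalized counts with DMSO and at 113, 74.0 and 73.1 with selinexor. Every selinexor library lay above every DMSO library, and replicate 1 was the highest. The rise was 2.23-fold (log2 fold change 1.16, SE 0.218, adjusted p = 0.00277), and 12.5% of genes tested had a larger change in either direction. Without selinexor replicate 1 it was 0.95 on the log2 scale (adjusted p = 0.00126). After XPO1 siRNA RELB stood at 54.0, 59.0 and 44.1, against 35.8, 36.1 and 38.7 with control siRNA. These groups did not overlap either, and the rise was 1.40-fold (log2 fold change 0.49, SE 0.190, adjusted p = 0.0442). That call was close to the threshold: it was lost without control siRNA replicate 1, 2 or 3 (adjusted p = 0.0859, 0.0858 and 0.0660) and without XPO1 siRNA replicate 1 or 2 (adjusted p = 0.106 and 0.170). RELB was also the member with the fewest reads, an estimated 34 to 94 in a library.

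The summed levels of several marker lists differed between the groups along with RELB. Of the leukocyte markers CD14 and CD74 had a row, and the others, PTPRC among them, were not analysed here. The summed level of CD14 and CD74 was 12.6 to 15.001 with DMSO and 17.5 to 32.4 with selinexor, and 6.32 to 9.55 with control siRNA and 16.0 to 29.8 with XPO1 siRNA. These values lie near the minimum mean of 10 used for the tests. Of CD14 and CD74, 0 reached it with DMSO, 2 with selinexor, 0 with control siRNA and 1 with XPO1 siRNA. Endothelial markers with a row (3 of 5) summed to 48.5 to 55.1 and 78.6 to 120.0 in the selinexor table, and to 53.1 to 64.5 and 89.3 to 99.0 in the knockdown table. Of these 3, a mean of at least 10 was reached by 2 with DMSO, 3 with selinexor, 3 with control siRNA and 1 with XPO1 siRNA. The higher sum after knockdown was therefore not shared by every endothelial marker. Schwann and glial markers (3 of 5) summed to 81.2 to 100.2 and 121 to 143, and to 78.6 to 119 and 129 to 143. Fibroblast and mesenchymal markers overlapped in the selinexor table (1807 to 1999.6 and 1427 to 2378, 6 of 7 with a row) and were lower after knockdown (2365 to 2688 and 2027 to 2101, 5 of 7). The adrenergic markers of the cell line itself summed to more in treated cells, at 63768 to 65892 and 73866 to 83926, and at 74276 to 76212 and 87861 to 93443. The part of these lists in the RELB result was not tested.

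NFKB2, which encodes the precursor that pairs with RELB after processing, fell after knockdown and had higher values with selinexor that did not pass the test (chr10:104153867-104162282, plus strand). With DMSO it stood at 206, 169 and 191 normalized counts and with selinexor at 326, 212 and 223. Replicate 1 was far above the other 2 selinexor libraries, though none overlapped with DMSO. The log2 fold change of 0.40 (SE 0.177) did not pass the test (adjusted p = 0.0916), and it was 0.21 (adjusted p = 0.138) without that replicate. With library totals made equal after removing RN7SL1 and RN7SL2, RNA components of the signal recognition particle, it was 0.55 (adjusted p = 0.0448). The share of these RNAs was 9.40% to 9.72% with DMSO and 12.6% to 16.0% with selinexor. After knockdown NFKB2 fell from 300.1, 274 and 270.0 to 241, 233 and 219, and all libraries were below the controls. The log2 fold change was -0.28 (SE 0.0848, adjusted p = 0.0119). That call was lost without control siRNA replicate 1 (adjusted p = 0.0501) and with equal totals (log2 fold change -0.19, adjusted p = 0.0666).

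NFKB1, the precursor gene of the canonical branch, fell in both comparisons (chr4:103422486-103538460, plus strand). Its libraries stood at 621, 630.0 and 591 normalized counts with DMSO and at 482, 422 and 439 with selinexor, with no overlap. The log2 fold change was -0.46 (SE 0.0944, adjusted p = 0.00439), a 1.37-fold fall. With control siRNA it stood at 582, 610.4 and 572, and with XPO1 siRNA at 499, 446 and 471. That was a 1.25-fold fall (log2 fold change -0.32, SE 0.0644, adjusted p = 0.000900), again without overlap. In both comparisons the size of the change was close to the middle of all genes, with 47.9% and 41.1% of genes tested changing by more.

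RELA, the main transactivating subunit (chr11:65421067-65430566, minus strand), gave no call. It stood at 1004, 1054 and 1007 normalized counts with DMSO and at 1010.4, 922 and 951 with selinexor, overlapping groups. Its log2 fold change was -0.09 (95% interval -0.28 to 0.10, adjusted p = 0.397). With control siRNA it stood at 1076, 989 and 1034 and with XPO1 siRNA at 1092, 1048 and 932, again overlapping. There the log2 fold change was -0.02 (95% interval -0.15 to 0.12, adjusted p = 0.856). Its sign depended on the scaling of the libraries: it was 0.06 with selinexor under equal totals without RN7SL1 and RN7SL2, and 0.08 and 0.06 after knockdown under equal totals with and without them.

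REL, the c-Rel subunit best known from lymphocytes (chr2:61108656-61158746, plus strand), also passed neither test. With DMSO it stood at 490.5, 495 and 444 normalized counts, with selinexor at 321, 431 and 415. All selinexor values were below those with DMSO, and replicate 1 was the lowest. The log2 fold change was -0.30 (SE 0.131, adjusted p = 0.0862). In the knockdown table it stood at 364, 456 and 392 with control siRNA and at 444, 401 and 446 with XPO1 siRNA, which overlap (log2 fold change 0.10, SE 0.0863, adjusted p = 0.368). A clone-named transcript on the same strand lies within the span of REL, sharing 5703 bases. Its log2 fold change was -1.62 with selinexor (adjusted p = 0.0183), and its part in the value of REL was not tested.

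NFKBIA is the member whose protein is cargo of XPO1, and its RNA rose after knockdown but not with selinexor (chr14:35870717-35873956, minus strand). The 3 DMSO libraries held 1009, 1104 and 1031 normalized counts and the 3 selinexor libraries 968, 916 and 879, so that every selinexor value was lower. The log2 fold change of -0.19 (SE 0.0860) did not pass the test (adjusted p = 0.105). Without selinexor replicate 1 the gene was called lower, at -0.22 (adjusted p = 0.00697). Under equal totals with and without RN7SL1 and RN7SL2 it was at -0.11 and -0.03 (adjusted p = 0.337 and 0.768). After knockdown NFKBIA rose, from 952, 873 and 873 with control siRNA to 1103, 1046 and 1132 with XPO1 siRNA, with no overlap. The rise was 1.22-fold (log2 fold change 0.28, SE 0.0539, adjusted p = 0.000549). Its promoter, printed above, held a kappaB match, as did those of NFKB1, NFKB2, REL and NFKBIB. Among those, NFKB1 and NFKB2 fell in the same knockdown libraries, and REL and NFKBIB were not called. The part of the matches in these changes was not tested. The row lies inside the span listed for SNORA79 on the same strand, a span that covers much of the chromosome arm and gave no call (adjusted p = 0.907 and 0.220).

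NFKBIB encodes IκBβ, an inhibitor that is degraded more slowly than IκBα in many cells (chr19:39390340-39399534, plus strand). It stood at 363, 473 and 412 normalized counts with DMSO and at 418, 322 and 284 with selinexor. Replicate 1 lay among the DMSO libraries and the others below them. The log2 fold change was -0.29 (SE 0.162, adjusted p = 0.163), and -0.45 (adjusted p = 0.00288) without that replicate. Under equal totals with and without RN7SL1 and RN7SL2 it was -0.22 and -0.14 (adjusted p = 0.329 and 0.506). With control siRNA it stood at 393, 361 and 387 and with XPO1 siRNA at 331, 352 and 343, lower in every library but without a call (log2 fold change -0.15, SE 0.0712, adjusted p = 0.0891). The row shares 164 bases with SIRT2 on the opposite strand, which rose in both comparisons (log2 fold changes 0.57 and 0.40).

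NFKBIE encodes IκBε, an inhibitor known to be induced with delay by NF-kB (chr6:44225903-44233501, minus strand). With DMSO it stood at 197, 190 and 191 normalized counts and with selinexor at 268, 216 and 185, overlapping groups (log2 fold change 0.19, SE 0.146, adjusted p = 0.3005). Selinexor replicate 1 was again the highest, and without it the log2 fold change was 0.05. With control siRNA it stood at 278, 266 and 284 and with XPO1 siRNA at 228, 229 and 262. All knockdown libraries were below the controls, but the test was not passed (log2 fold change -0.21, SE 0.0864, adjusted p = 0.0593). Without XPO1 siRNA replicate 3 it was called lower, at -0.27 (adjusted p = 0.0271).

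SOD2, the mitochondrial superoxide dismutase and a classical target of NF-kB, had the largest fall of the group in both comparisons (chr6:160090089-160183562, minus strand). It stood at 5575, 5766 and 5534 normalized counts with DMSO and at 2957, 3898 and 3634 with selinexor. All selinexor libraries were lower, replicate 1 the most. The fall was 1.62-fold (log2 fold change -0.70, SE 0.109, adjusted p = 0.00108), and -0.58 on the log2 scale without replicate 1 (adjusted p = 2.72e-07). After knockdown it fell from 6512, 6772 and 6491 to 4888, 4763 and 4757, a 1.37-fold fall (log2 fold change -0.46, SE 0.0335, adjusted p = 9.85e-08). The replicates of each siRNA group lay close together, and the gene ranked 656 by p among the 17616 tested. The span of the SOD2 row covers all of WTAP and 2203 bases of ACAT2, both on the opposite strand, and whether the authors' counting used strand is not given in the sources used here. ACAT2 fell in both comparisons (log2 fold changes -1.78 and -1.04), as did WTAP (-0.53 and -0.11). Their part in the SOD2 value was not tested.

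The 2 effects were then compared directly, as selinexor minus DMSO less XPO1 siRNA minus control siRNA. Time, agent and delivery all differ between the pairs, so these cannot be told apart in a difference of effects. Of the 9 members, 2 differed between the comparisons, 1 in each direction, against 31.8% of 17332 genes tested (11.6% higher and 20.2% lower). NFKB2 differed by 0.68 on the log2 scale (SE 0.201, adjusted p = 0.0204), with the higher value under selinexor. Leaving out DMSO replicate 2 ended this call (adjusted p = 0.0563), and so did leaving out control siRNA replicate 1 (adjusted p = 0.0534). NFKBIA differed by -0.47 (SE 0.0961, adjusted p = 0.00257), with the higher value after knockdown. For NFKBIA the call held on leaving out each library and under the other settings tried, at an adjusted p of 6.82e-05 to 0.0101.

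For the remaining members the difference did not pass the test. RELB differed by 0.67 (adjusted p = 0.0786), NFKBIE by 0.40 (adjusted p = 0.0867), REL by -0.40 (adjusted p = 0.0821) and SOD2 by -0.24 (adjusted p = 0.133). NFKB1, NFKBIB and RELA had differences of -0.14, -0.14 and -0.07 (adjusted p = 0.343, 0.582 and 0.612). Some of these turned on a library. REL was called without selinexor replicate 2 (adjusted p = 0.0382) or control siRNA replicate 2 (adjusted p = 0.0480), SOD2 without selinexor replicate 2 (adjusted p = 0.0245) and NFKBIE without selinexor replicate 3 (adjusted p = 0.0184).

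**Figure D2:**
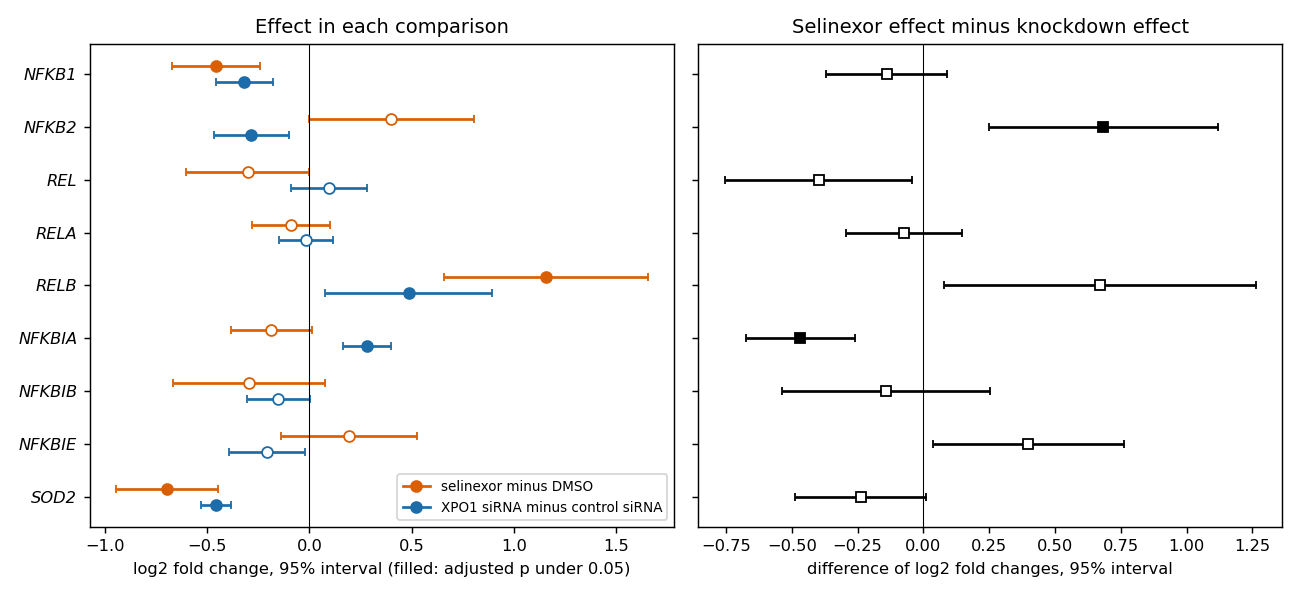
Left, log2 fold change of each NF-kB gene with selinexor (orange) and with XPO1 siRNA (blue). Right, the difference of these effects. Points are limma estimates, bars are 95% intervals and filled points have an adjusted p under 0.05. RELB lies to the right and NFKB1 and SOD2 to the left in both comparisons, and the filled points on the right are NFKB2 (0.68) and NFKBIA (-0.47).

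To compare the genes with each other, normalized counts were divided by the length of the union of exons in GENCODE 29. With DMSO, NFKBIA stood highest at 552 normalized counts per kb, followed by SOD2 at 317, RELA at 302 and NFKBIB at 195. Below them came NFKB1 at 111, NFKBIE at 74.6, NFKB2 at 51.3, REL at 42.3 and RELB at 16.4. The libraries of no neighbouring pair in this DMSO order overlapped. NFKBIA was first in every group. With selinexor RELB reached 37.7 per kb and REL stood at 34.6, and the libraries of this pair overlapped. Divided by the median length of coding transcripts instead, REL lay above RELB with selinexor (57.0 and 38.0) and above NFKB2 with DMSO (69.8 and 61.0). The place of SOD2 also depends on the length used, since its exon union is 17721 bases and the median coding transcript 991 bases. By transcript length SOD2 stood first in every group, at 5676 normalized counts per kb with DMSO.

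Shares within a library do not depend on its size factor. RELA made up 57.7% ± 0.954 (SD, n = 3) of the summed level per kb of the 5 subunit transcripts with DMSO, 56.2% ± 1.84 with selinexor, 56.5% ± 1.49 with control siRNA and 59.1% ± 1.40 with XPO1 siRNA. It was thus the major subunit transcript by this measure in all 4 groups. The share of RELB was 2.79%, 3.03% and 3.59% in the DMSO libraries and 8.89%, 6.75% and 6.49% in the selinexor libraries. It was 2.82%, 2.94% and 3.15% with control siRNA and 4.34%, 4.98% and 4.00% with XPO1 siRNA, so that both pairs of groups were apart. The mean share of NFKB1 was 21.3% with DMSO and 16.0% with selinexor, and 19.7% with control siRNA and 16.7% with XPO1 siRNA. NFKB2 had 9.82% with DMSO and 13.5% with selinexor, but 14.1% with control siRNA and 12.3% with XPO1 siRNA.

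Among the 3 inhibitor transcripts, NFKBIA made up 68.3%, 66.3% and 67.0% with DMSO and 63.0%, 67.2% and 69.3% with selinexor, which overlap. After knockdown its share was 70.4%, 68.4% and 69.4%, against 63.2%, 62.7% and 61.2% with control siRNA, with no overlap. NFKBIB and NFKBIE each made up less of the total after knockdown, 19.4% against 23.5% and 11.2% against 14.1%. With selinexor the share of NFKBIE was 11.7% and that with DMSO 9.12%.

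**Figure D3:**
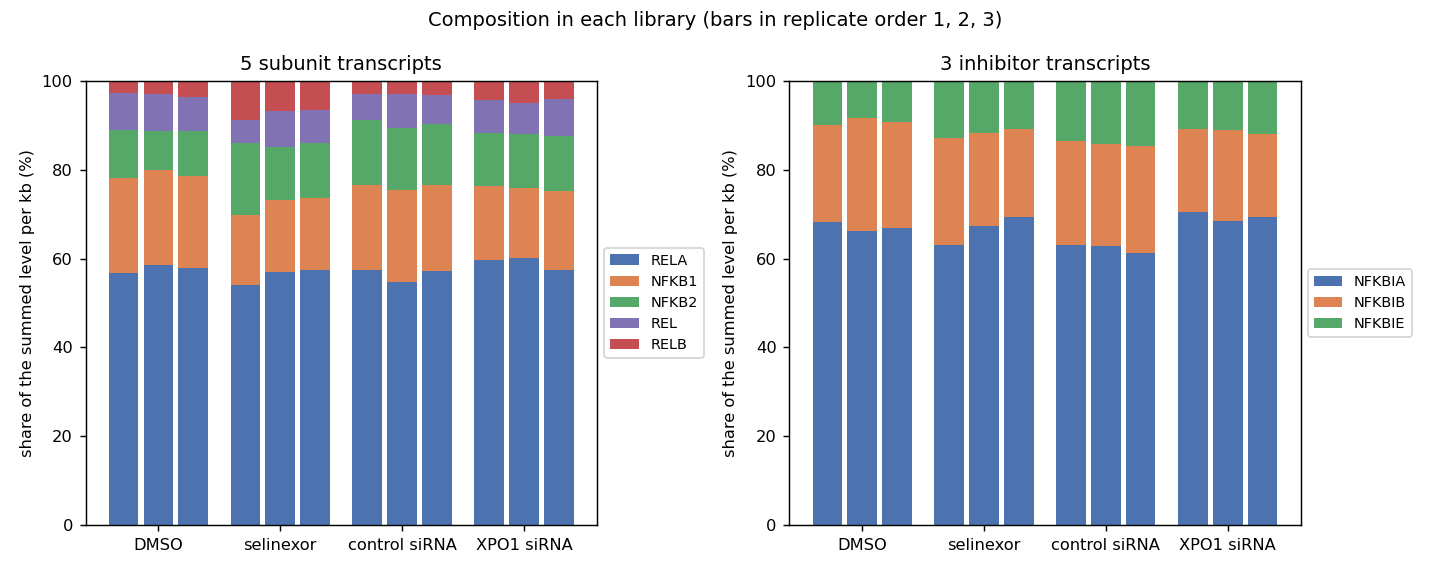
Share (%) of each gene in the summed normalized count per kb of the 5 subunit transcripts (left) and the 3 inhibitor transcripts (right), 1 bar per library in replicate order. RELA fills at least 54.1% of each left bar, the RELB segment is larger in selinexor and XPO1 siRNA bars than in their controls, and NFKBIA takes 68.4% to 70.4% of the XPO1 siRNA bars on the right.

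Genes upstream of the members were read from fixed lists. Of 21 NF-kB activating ligands and receptors, 4 had a mean of at least 10 and were tested, all receptors or receptor subunits. With selinexor none rose and 2 fell, with a median log2 fold change of -0.32, beside 22.9% higher and 26.3% lower of all genes tested. TNFRSF11A, the RANK receptor, went from a mean of 79.7 to 43.1 normalized counts (log2 fold change -0.87, adjusted p = 0.00239). TNFRSF1A, the main TNF receptor, went from 451 to 361 (log2 fold change -0.32, adjusted p = 0.0314), a call that was lost without any DMSO library (adjusted p = 0.0811 to 0.118) or without selinexor replicate 3 (adjusted p = 0.0752). Under equal totals with and without RN7SL1 and RN7SL2 TNFRSF1A was at -0.24 and -0.17 and not called (adjusted p = 0.0543 and 0.164). After knockdown none rose and 2 others fell (median -0.64), beside 25.9% and 28.6%. Under equal totals with and without RN7SL1 and RN7SL2 TNFRSF1A was called higher there (0.20 and 0.18, adjusted p = 0.0174 and 0.0280). IL1RAP, a subunit of the interleukin-1 receptor, went from 150.2 to 81.6 and TNFRSF12A, the TWEAK receptor, from 59.1 to 30.4 (log2 fold changes -0.88 and -0.94, adjusted p = 0.000135 and 0.000843). With selinexor IL1RAP and TNFRSF12A were at -0.33 and -0.24 and not called (adjusted p = 0.236 and 0.448). After knockdown TNFRSF11A was at -0.40 (adjusted p = 0.0844) and TNFRSF1A at 0.11 (adjusted p = 0.183). The difference of effects passed the test for TNFRSF1A (-0.43, adjusted p = 0.0120). It did not for TNFRSF11A, IL1RAP or TNFRSF12A (adjusted p = 0.173, 0.134 and 0.0776). Other settings called it for IL1RAP and TNFRSF12A (lowest adjusted p = 0.00675 and 0.0213).

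All 25 kinases and adaptors were tested. With selinexor 5 rose and 6 fell, with a median log2 fold change of -0.16, beside 22.9% and 26.3% of all genes tested. The counts were 5 and 11 without selinexor replicate 1, 3 and 5 without DMSO replicate 1, 3 and 3 without DMSO replicate 3, and 5 and 3 under equal totals without RN7SL1 and RN7SL2. TRADD, the adaptor of the TNF receptor, stood at 52.4, 60.004 and 61.4 normalized counts with DMSO and at 148, 96.2 and 124 with selinexor, a 2.07-fold rise (log2 fold change 1.05, adjusted p = 0.00205). After knockdown its log2 fold change was -0.06 (adjusted p = 0.773), and the difference between the effects passed the test (1.11, adjusted p = 0.00378). TAB3, a binding partner of the kinase TAK1, rose in both comparisons (log2 fold changes 0.74 and 0.47). TAK1 itself, encoded by MAP3K7, fell with selinexor from a mean of 2959 to 1862 (log2 fold change -0.68, adjusted p = 0.00201). TRAF3, which in resting cells directs the non-canonical kinase to degradation, fell in both (-0.69 and -0.27, adjusted p = 0.000572 and 0.000337), and the 2 effects differed by -0.42 (adjusted p = 0.00996).

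After XPO1 siRNA 7 kinases and adaptors rose and 8 fell, with a median of -0.0024, beside 25.9% and 28.6% of all genes tested. The lower count was 3 under equal totals with or without RN7SL1 and RN7SL2, 4 without the intensity trend, 5 without XPO1 siRNA replicate 2 and also without control siRNA replicate 3, and 4 without XPO1 siRNA replicate 3. MAP3K14, the non-canonical kinase itself, rose from 237, 204 and 227 to 307, 303 and 307 normalized counts (log2 fold change 0.46, adjusted p = 0.000411). With selinexor MAP3K14 stood at 352, 247 and 205, around the DMSO values of 240.1, 246 and 250.4 (log2 fold change 0.09, and -0.12 without selinexor replicate 1). The difference of effects for MAP3K14 was -0.37 and did not pass the test (adjusted p = 0.1995). In 1 other setting it did (adjusted p = 0.00158). TAB1, the activator subunit of TAK1, fell after knockdown (-0.26, adjusted p = 0.000416). With selinexor TAB1 was at -0.18 (adjusted p = 0.314), and 1 other setting called it lower (adjusted p = 0.000184). Its effects differed by 0.07, which did not pass the test (adjusted p = 0.751). MAP3K7 had a log2 fold change of -0.10 there (adjusted p = 0.0343), a call lost on leaving out replicate 2 or 3 of either siRNA group (adjusted p = 0.0710 to 0.163) and without the intensity trend (adjusted p = 0.0849). Under equal totals with and without RN7SL1 and RN7SL2 it was -0.011 and -0.027 (adjusted p = 0.824 and 0.536).

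Of 16 listed symbols of other inhibitors and negative regulators 13 were tested. FAM105B and OTULIN, names of the same gene, were both listed. With selinexor 2 rose and 2 fell (median log2 fold change 0.04), beside 22.9% and 26.3% of all genes tested. After knockdown 2 rose and 4 fell (median 0.00011), beside 25.9% and 28.6%. With selinexor the counts were 5 and 1 under equal totals without RN7SL1 and RN7SL2, 1 and 1 on leaving out any DMSO library, and 2 and 1 without selinexor replicate 3 or without the intensity trend. After knockdown they were 5 and 1 under equal totals with or without those RNAs, and 2 and 2 without the intensity trend. CYLD, a deubiquitinase that restrains the IκB kinase, rose in both, from 720, 724 and 708 to 811, 1030.5 and 1007 with selinexor and from 725, 712 and 704 to 964, 940 and 939 after knockdown (log2 fold changes 0.40 and 0.41). The selinexor call of CYLD (adjusted p = 0.0166) was lost on leaving out any DMSO library or selinexor replicate 3 (adjusted p = 0.0568 to 0.0652). PDLIM2, a ligase that ends RELA activity in the nucleus, rose with selinexor from a mean of 117 to 178 (log2 fold change 0.61, adjusted p = 0.00825). After knockdown it was at -0.20 (adjusted p = 0.0673), and 1 other setting called it lower (adjusted p = 0.0281). The difference between the effects passed the test (0.82, adjusted p = 0.00288). FAM105B, also known as OTULIN, fell with selinexor (-0.47, adjusted p = 0.00327) and was at 0.03 after knockdown (adjusted p = 0.559). Under equal totals with and without RN7SL1 and RN7SL2 it was called higher there (0.12 and 0.10, adjusted p = 0.0239 and 0.0397). Its effects differed by -0.49 (adjusted p = 0.00168). ITCH, a partner of TNFAIP3 in its deubiquitinating complex, fell with selinexor (-0.42, adjusted p = 0.0378), a call lost without any DMSO library or selinexor replicate 3 (adjusted p = 0.0507 to 0.108), without the intensity trend (adjusted p = 0.0804) and under equal totals without RN7SL1 and RN7SL2 (-0.27, adjusted p = 0.119). After knockdown ITCH was also called lower (-0.15, adjusted p = 0.00411). That call was lost under equal totals with and without RN7SL1 and RN7SL2 (-0.065 and -0.081, adjusted p = 0.136 and 0.0713). In the same comparison TNIP2 fell (-0.45, adjusted p = 0.000726) and RNF11, another partner in the TNFAIP3 complex, rose (0.22, adjusted p = 9.08e-05). With selinexor TNIP2 was at -0.22 (adjusted p = 0.0926) and RNF11 at 0.30 (adjusted p = 0.0877), neither called. There 1 other setting called TNIP2 lower and 3 called RNF11 higher. Their differences of effects did not pass the test (adjusted p = 0.222 and 0.727), though that of RNF11 did in 1 other setting.

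Of 34 listed symbols of target genes, 12 were tested with selinexor and 13 after knockdown. CXCL8 and IL8, names of the same gene, were both listed. With selinexor 6 rose and 1 fell, with a median log2 fold change of 0.44, beside 22.9% and 26.3% of all genes tested. After knockdown 4 rose and 4 fell, with a median of 0.13, beside 25.9% and 28.6%. The number that rose was 2 without XPO1 siRNA replicate 1 and also without control siRNA replicate 3. These counts are descriptions. CSF1, the macrophage growth factor, had the largest rise of the list in both comparisons. It stood at 156, 133 and 166 normalized counts with DMSO and at 498, 503 and 408 with selinexor, a 3.08-fold rise (log2 fold change 1.62, SE 0.133, adjusted p = 3.55e-05). With control siRNA it stood at 100.0, 93.4 and 106 and with XPO1 siRNA at 212, 193 and 200.02, a 2.02-fold rise (adjusted p = 3.36e-06). The groups were far apart in both tables, and the selinexor effect was the larger by 0.61 on the log2 scale (adjusted p = 0.0113).

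BCL2L1, which encodes the survival protein Bcl-xL, rose 1.39-fold with selinexor (adjusted p = 0.00208) and 1.19-fold after knockdown (adjusted p = 0.000714). IRF1, an interferon regulatory factor, rose with selinexor from a mean of 113 to 185 (log2 fold change 0.71, adjusted p = 0.00615). After knockdown IRF1 was at 0.31 (adjusted p = 0.0589), without overlap of the groups, and 3 other settings called it higher. Its effects differed by 0.40, which did not pass the test (adjusted p = 0.125). TNFAIP2, a gene named for its induction by TNF, was 1 of 2 list genes with opposite calls. It stood at 39.5, 41.5 and 40.6 with DMSO and at 62.4, 70.8 and 69.8 with selinexor (log2 fold change 0.72, adjusted p = 0.00663), but at 219, 193 and 197 with control siRNA and 148, 100.5 and 136 with XPO1 siRNA (-0.68, adjusted p = 0.000860). The effects differed by 1.40 (adjusted p = 0.000240). FTH1, the ferritin heavy chain and like SOD2 an antioxidant target, fell after knockdown (-0.26, adjusted p = 5.70e-05) and had a log2 fold change of 0.17 with selinexor (adjusted p = 0.0919). FTH1 was called higher with selinexor without selinexor replicate 1 (0.13, adjusted p = 0.0262) and under equal totals with and without RN7SL1 and RN7SL2 (0.25 and 0.33, adjusted p = 0.0344 and 0.00842). NINJ1, an adhesion protein, fell after knockdown (-0.60, adjusted p = 0.000203), and its log2 fold change with selinexor was -0.03 (0.05 under equal totals). Of 54 list genes tested in both comparisons, 15 passed the test each time, a share below the 33.9% of all genes. Their signs matched for 13 and were opposite for 2. The share of matching signs over all genes called in both was not computed. The other opposite gene was CUL1, a scaffold of the ligase that marks IκB for degradation, named here after its values were seen.

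**Figure D4:**
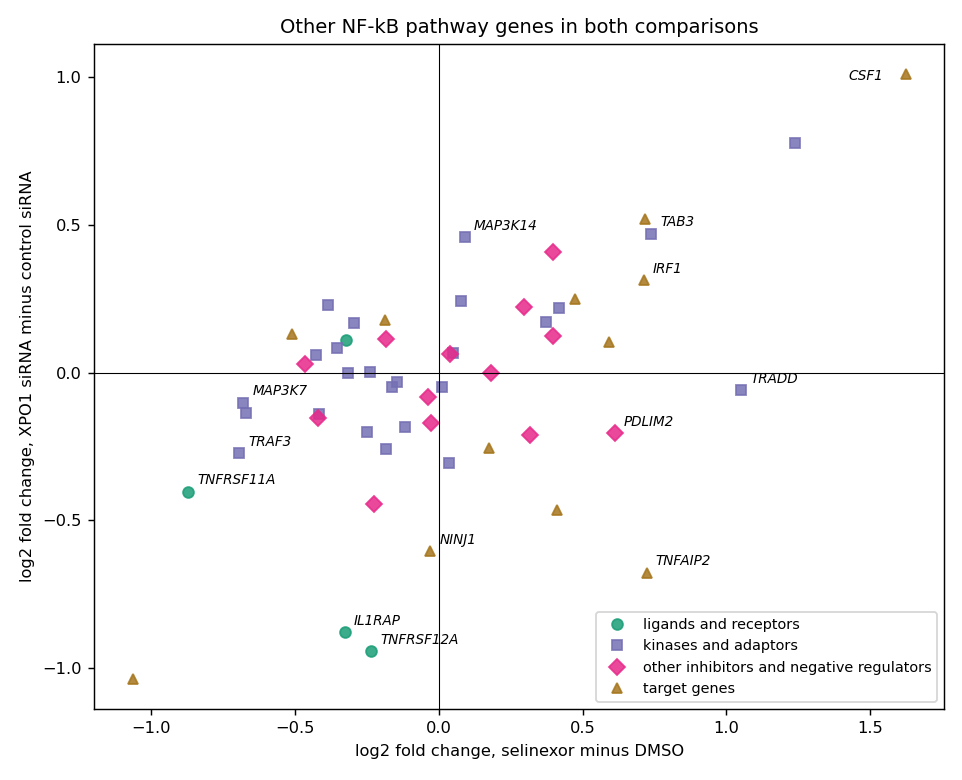
Log2 fold change with selinexor (horizontal axis) against that with XPO1 siRNA (vertical axis) for the NF-kB pathway genes of the 4 lists that were tested in both comparisons, 1 symbol per list. CSF1 (1.62 and 1.01) lies at the upper right, TNFAIP2 (0.72 and -0.68) at the lower right, and TRADD (1.05 and -0.06) near the horizontal line.

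The genes whose pattern was most like that of NFKBIA and of RELB were found by correlation over the 12 libraries, after subtracting the mean log2 value of the control group of the same table. These libraries share their normalization and groups, so the values are descriptions. Among 12363 genes with a mean of 100 or more, the genes most like NFKBIA included CXXC5 (Pearson r 0.980) and ISLR2 (0.969). CXXC5 had log2 fold changes of -0.18 with selinexor and 0.23 after knockdown, beside -0.19 and 0.28 for NFKBIA. RELB was most like TECPR1 (0.987), APP (0.982) and TSNARE1 (0.981). APP, the amyloid precursor protein gene, had log2 fold changes of 0.66 and 0.32, beside 1.16 and 0.49 for RELB.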

How the data were processed

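Groups were taken from the titles of the samples. The authors worked with STAR 2.7.3a, Partek, DESeq2 and build hg19, per the submitters' processing notes, and the way of counting is not given in the sources used here. Each deposited signal value is a gene count that the authors divided by each library's size factor, computed apart for the 20029 genes of the selinexor table and the 19610 of the knockdown table. Among low values (0.3 to 60), 61.9% to 66.8% lay within 0.02 of whole multiples of a column's step (4% by chance), so whole reads were not recovered and depth is an estimate. The knockdown table also held 3 per-sample columns that match no sample used here and were left out, and 25 symbols turned into dates were restored by position.

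The test was limma 3.58.1 under R 4.3.3, with lmFit and a trended eBayes fit of log2(value + 1), for genes averaging 10 or more in a table's 6 libraries. Tests were two-sided, Benjamini-Hochberg adjustment covered all genes tested, and the threshold was 0.05. Fold changes on that scale understate those of low genes. The difference of effects used all 12 libraries and 4 group means. The steps were tested on simulated data. Tables were made with Python 3.11.15, numpy 2.4.6 and pandas 2.3.3, figures with matplotlib 3.10.9. Promoters are from RefSeq (GRCh38.p14) and lengths from GENCODE 29.

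The members and gene lists were chosen with earlier results of these data known. Named beside the members and XPO1 were, for each list and comparison, up to 4 called genes with the smallest p (up to 2 where none was called), and the 3 genes most like NFKBIA and RELB, except items that are not reported here. Alternatives were other pseudocounts (0.5, 5), filters (none, a mean of 50) and scalings (equal totals with and without RN7SL1 and RN7SL2, a 30% trimmed mean), no trend, a replicate block and each replicate left out.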

Additional observations from a re-analysis of the deposited data

Results flagged for a closer look

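The effect of selinexor differed from that of XPO1 siRNA by the test of the difference itself for NFKB2 and NFKBIA. For NFKB2 the log2 difference was 0.68 (limma adjusted p = 0.0204), with log2 fold changes of 0.40 with selinexor and -0.28 after knockdown. For NFKBIA it was -0.47 (adjusted p = 0.00257), with log2 fold changes of -0.19 and 0.28. Agent, time and delivery differ between the comparisons and cannot be told apart.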

How the results depend on the processing

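Leaving out a library kept the direction and the side of the threshold for 838 log2 fold changes of named genes, with 40 calls lost, 23 gained and 11 signs turned. The other settings kept them for 971, with 22 lost, 19 gained and 9 turned. With selinexor, members called higher were 2 under equal totals without RN7SL1 and RN7SL2 and under a replicate block (NFKB2 added), and members called lower ranged from 2 to 4 on leaving out a library (NFKBIA and NFKBIB added without selinexor replicate 1). After knockdown, members called higher were 1 with a mean of 50 or more (RELB not tested) and under a replicate block (RELB adjusted p = 0.0696), and ranged from 1 to 2 on leaving out a library. For the difference of effects, members called lower were 2 under equal totals (SOD2 added), and on leaving out a library members called higher ranged from 0 to 2 and lower from 1 to 3.

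The replicate block is reported here because groups share numbers. Deviations of same-numbered libraries correlated at 0.0088, 0.119 and -0.042 with selinexor and at -0.031, -0.020 and -0.104 after knockdown, so no pairing by number was seen. With 3 libraries in each group these values cannot exclude a pairing. With the block 3991 genes were called higher and 4680 lower with selinexor, against 4146 and 4774, and 4439 and 4882 after knockdown, against 4561 and 5042.

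Scaling moved the share of higher among called genes. With selinexor 46.5% were higher, and 60.9% under equal totals without RN7SL1 and RN7SL2, where the median log2 fold change of all genes was 0.15. After knockdown 47.5% were higher, 62.4% under equal totals and 59.7% without those RNAs (medians 0.09 and 0.08). For the difference 36.5% were higher, and 47.3% under equal totals without those RNAs.

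Signs that turned belonged to genes with small changes. Under equal totals the log2 fold change of NINJ1 with selinexor was 0.048, and after knockdown those of RELA and TRADD were 0.075 and 0.030. Under equal totals without those RNAs, NINJ1 and RELA with selinexor were at 0.12 and 0.065, RELA and TRADD after knockdown at 0.059 and 0.014, and the differences of RELA and CYLD at 0.0061 and 0.068. On leaving out a library, values ranged with selinexor from -0.12 to 0.26 for MAP3K14, -0.019 to 0.25 for XPO1 and -0.088 to 0.029 for NINJ1. They ranged after knockdown from -0.063 to 0.051 for RELA and -0.18 to 0.026 for TRADD. In the difference they ranged from -0.099 to 0.17 for TAB1, -0.075 to 0.097 for CYLD and -0.021 to 0.23 for RNF11. The cause was not tested. The low read numbers of RELB limit its precision.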
